A study of Rattus norvegicus with 372 samples.

Results

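The 10 genes described here handle iron, and they were followed in cultured rat hepatocytes over every treatment of the study. They are Hamp, Tf, Tfrc, Tfr2, Steap3, Slc11a2, Slc40a1, Fth1, Ftl1 and Aco1. Members were found by symbol among the probes of the whole transcriptome (WT) assay, and each of the 10 genes was covered by 1 probe, out of 22253 probes for 20946 gene symbols. Tf, Slc11a2, Slc40a1 and Aco1 were also on the smaller surrogate (ST) assay of 2654 probes. Genes averaging 10 or more counts over the wells were tested, which kept all 10 members among 10191 genes. Hamp had 6 to 21 counts in the 9 vehicle wells (mean 15), so it would have passed the filter on these wells alone.

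The hepatocytes came from male Wistar rats, and were kept in collagen sandwich in William's medium E with insulin, dexamethasone and EGF, which all groups shared. Each chemical was given for 24 h in medium with 0.5% DMSO. Batch 1 and batch 2 each used the cells of 1 rat, so the 3 wells of a treatment within a batch are technical replicates and the p-values carry no error between animals beyond these 2 rats. The low and high concentrations were 400 and 10000 µM for acetaminophen, caffeine, isoniazid and valproic acid, 18 and 450 µM for chloramphenicol, 16 and 400 µM for diclofenac, 0.08 and 2 µM for doxorubicin and 12 and 300 µM for indomethacin. They were 0.6 and 15 µM for ketoconazole, 80 and 2000 µM for naproxen, 160 and 4000 µM for ranitidine, 2.4 and 60 µM for simvastatin, 4 and 100 µM for sulfasalazine and 8 and 200 µM for WY14643, an agonist of the nuclear receptor PPARα. The controls were vehicle (0.5% DMSO) and, without it, culture medium, with 3 wells of each in batch 1 and 6 of each in batch 2. WT wells held 2289425 to 8975207 reads. In batch 1 all controls were on plate 4, so for acetaminophen, chloramphenicol, indomethacin, ketoconazole, sulfasalazine and WY14643, which were on plate 5, the treatment and the plate cannot be told apart in that batch. Both plates of batch 2 held vehicle wells. The paper measured viability by ATP in a parallel set of wells, and it was lowest with the high concentrations of valproic acid and indomethacin. The part of lower viability in the values below was not tested.

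The liver makes the hormone, carrier and store of body iron. Hepcidin, the product of Hamp, binds the exporter ferroportin (Slc40a1) and has it degraded, which holds iron inside cells, and Hamp is switched on by BMP and SMAD signals that report iron and by IL-6 and STAT3 signals that report inflammation. Transferrin (Tf) carries iron in plasma and enters cells through transferrin receptor 1 (Tfrc), while transferrin receptor 2 (Tfr2) is a hepatocyte sensor of loaded transferrin. In the endosome the reductase Steap3 turns ferric into ferrous iron, and the divalent metal transporter Slc11a2 moves it to the cytosol. Ferritin heavy and light chains (Fth1 and Ftl1) store iron, and Aco1, also known as iron regulatory protein 1, is an aconitase that turns into an RNA-binding regulator of ferritin and Tfrc mRNA when iron is low.

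The bases upstream of the start of Hamp and Tfrc are shown because these genes had the largest rises among the members and because the BMP and STAT signals named above act on the Hamp promoter. They are the 250 bases before the RefSeq start, from assembly GRCr8, at chr1:95300272-95300521 for Hamp and chr11:81690319-81690568 for Tfrc, both on the minus strand. Capitals mark matches to GGCGCC (the BMP-responsive element), TTCNNNGAA (a STAT site) or ACGTG (the core of a hypoxia response element), searched on both strands.
Hamp: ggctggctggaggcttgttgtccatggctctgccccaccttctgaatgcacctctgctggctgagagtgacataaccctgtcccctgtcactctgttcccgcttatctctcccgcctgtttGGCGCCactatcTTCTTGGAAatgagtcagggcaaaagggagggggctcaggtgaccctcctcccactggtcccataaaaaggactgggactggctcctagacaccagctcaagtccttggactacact
Tfrc: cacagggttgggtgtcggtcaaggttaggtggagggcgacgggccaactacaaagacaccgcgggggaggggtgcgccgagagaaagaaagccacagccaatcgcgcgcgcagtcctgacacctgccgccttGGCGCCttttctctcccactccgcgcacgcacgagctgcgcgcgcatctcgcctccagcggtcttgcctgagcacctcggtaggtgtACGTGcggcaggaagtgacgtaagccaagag

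In Hamp, GGCGCC lay at -129 to -124 and the STAT match at -117 to -109 from the start, with no overlap. Tfrc held GGCGCC at -118 to -113 and ACGTG at -31 to -27. Of the 8 members with a promoter entry, Hamp and Tfrc were the 2 with GGCGCC, against 8.69% of 33469 rat promoters. The STAT letters were in 7.67% of all promoters and in Hamp alone among the members, and ACGTG was in 16.57% and in Tfrc alone. The letters TGACNNNGC (the core of an antioxidant response element) were in 10.08% of promoters and in none of the 8. Fth1 and Ftl1 were the members without an entry. Whether any match acts in these cells was not tested, and nothing is read from the shares among 8 members.

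Albumin and Hnf4a, markers of hepatocytes, were the more abundant in vehicle wells, while some markers of other liver cells were as high as Tat, another hepatocyte marker. In vehicle wells, albumin (Alb) had 10818 to 14790 CPM (a gene's reads scaled to the reads of the well) and Hnf4a, a hepatocyte transcription factor, 154 to 234 CPM. Tat, an enzyme of tyrosine breakdown, had 27.9 to 40.4 CPM, in the range of the biliary marker Epcam (27.3 to 44.3 CPM) and of Cd14 (23.0 to 42.4 CPM). The stellate marker Col3a1 had 19.7 to 125 CPM, with means of 98.9 CPM in batch 1 and 24.4 CPM in batch 2. The Kupffer cell and leukocyte list summed to 69.7 to 104 CPM over its 10 genes in vehicle wells, of which Cd163 gave 8.75 to 12.4 and Clec4f 5.04 to 23.1. Endothelial markers summed to 1.67 to 3.81 CPM over 6 genes, and red cell markers to at most 0.363 CPM over 3 genes, with Hbb at 0 in 6 of 9 vehicle wells. Stellate cell markers summed to 109 to 168 CPM in batch 1 and 35.0 to 50.8 CPM in batch 2 over 6 genes, with Col1a1 at 0 in 7 wells. Biliary markers summed to 33.1 to 49.0 CPM over 4 genes, with Krt7 at 0 in all 9. At high concentrations the summed level of 6 hepatocyte markers ranged from 5740 to 36460 CPM (median 19899 over 84 wells), against 28031 to 36634 with vehicle (median 32803), and it was lowest with 400 µM diclofenac. In lysates of whole wells, fewer cells of a type and less RNA per cell cannot be told apart.

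Treatments were compared with vehicle by edgeR in 1 fit over both batches, with batch as a term, and a gene was called at a Benjamini-Hochberg adjusted p under 0.05 over the 10191 genes. Of the 280 pairs of a member and a treatment, 121 were called (43.2%), against 30.2% of all gene and treatment pairs. At high concentrations 97 of 140 pairs were called, where all genes gave 50.9%, and at low concentrations 24 of 140, where all genes gave 9.41%. Scaling was by TMM factors, under which the median gene changed by -0.03 to 0.05 on the log2 scale. Scaling by library totals alone, as in CPM, moved that median to -0.43 with 10000 µM acetaminophen, 0.27 with 10000 µM valproic acid, -0.29 with 8 µM and -0.24 with 200 µM WY14643, and no member call changed its sign. Of the called pairs, 70 were higher than vehicle (all genes: 15.2% higher) and 51 lower (15.0%). With library totals alone 61 were higher and 55 lower, and 43.3% of the calls of all genes were higher, against 50.3% with TMM. When each batch was fitted by itself, 80 of the 280 pairs were called in both batches in the same direction, against 15.8% of all pairs. Of these, 48 were higher (all genes: 8.13%) and 32 lower (7.70%). The members moved in different directions. Slc40a1 was called lower 16 times and never higher, Tfrc higher 15 times and never lower, Hamp higher 6 times and never lower, and Tf lower 12 times and higher 2 times.

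Members were called under every high concentration. With 15 µM ketoconazole all 10 were called, where 51.3% of all genes were. With 10000 µM acetaminophen 9 of 10 were called (all genes: 78.9%), with 4000 µM ranitidine 9 (66.2%), and with 10000 µM valproic acid 8 (66.7%). There were 7 called with caffeine (66.2%), diclofenac (71.7%), indomethacin (54.7%), isoniazid (34.7%), naproxen (53.8%), sulfasalazine (41.0%) and WY14643 (51.3%). Chloramphenicol had 6 (33.3%), simvastatin 4 (23.9%) and doxorubicin 2 (19.4%). Among low concentrations, valproic acid with 7 (29.1%), WY14643 with 7 (56.2%) and naproxen with 5 (16.0%) had the most members called.

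**Figure D1:**
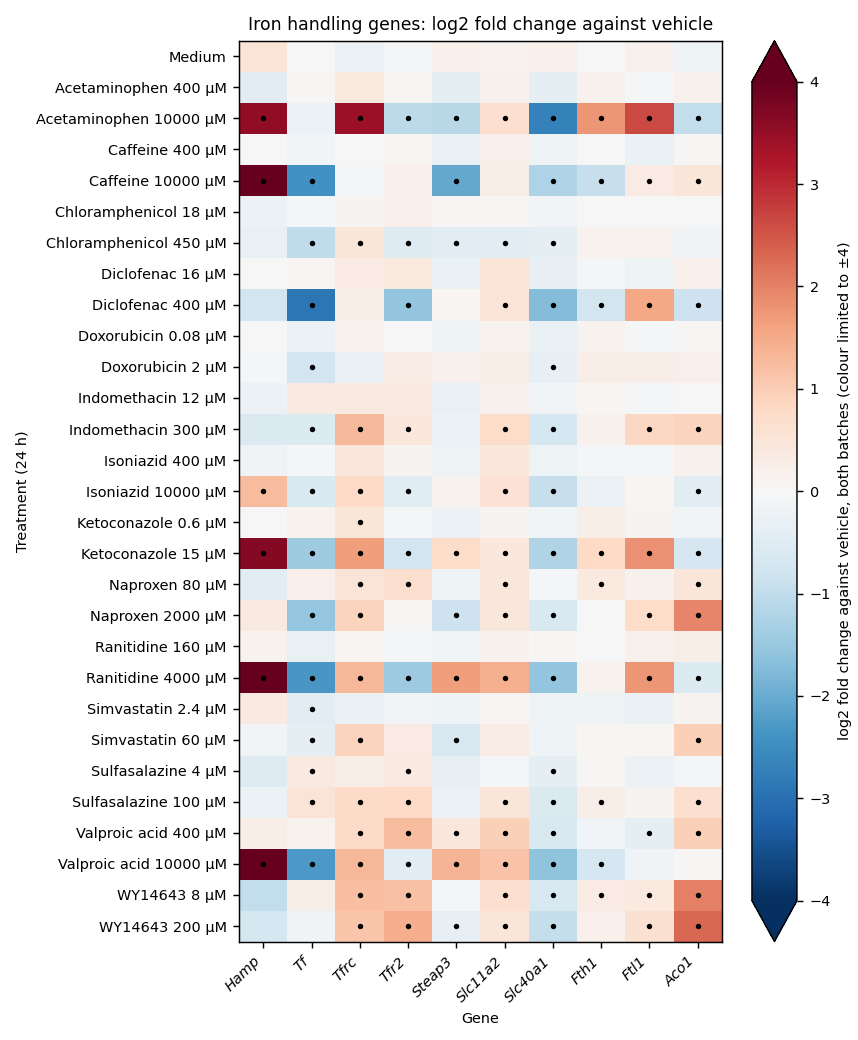
Log2 fold change against vehicle of the 10 genes (columns) under culture medium and the 28 treatments (rows), from the fit over both batches, with colours limited to ±4 and a dot where the adjusted p was under 0.05. The low concentrations are mostly pale apart from WY14643 (8 µM) and valproic acid (400 µM), Slc40a1 is blue or pale throughout, and Hamp is deep red under few treatments.

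Hamp, the gene of the hormone hepcidin, rose with 6 of the 28 treatments, and each of these was a high concentration. It rose 169-fold with valproic acid, 91.5-fold with ranitidine, 29.5-fold with caffeine, 12.9-fold with ketoconazole, 11.6-fold with acetaminophen and 2.39-fold with isoniazid. In vehicle wells Hamp was scarce, at 2.18, 1.09 and 3.39 CPM in batch 1 and from 0.901 to 3.11 CPM (median 2.48) in batch 2. With 10000 µM valproic acid it stood at 335, 428 and 427 CPM in batch 1 and at 404, 520 and 508 CPM in batch 2. With 4000 µM ranitidine it was 59.3, 69.3 and 72.8 CPM in batch 1 and 373, 295 and 377 CPM in batch 2. Every one of these wells was above every vehicle well of its batch, and the ranitidine wells of the batches were far apart. With 10000 µM caffeine Hamp had 36.4, 42.7 and 54.1 CPM in batch 1 and 68.8, 71.4 and 83.5 CPM in batch 2. With 15 µM ketoconazole it had 20.2, 36.3 and 27.3 CPM and then 29.3, 23.1 and 20.9 CPM. The wells of 10000 µM acetaminophen spread more widely, with 7.97, 30.7 and 18.9 CPM in batch 1 and 14.3, 31.1 and 8.22 CPM in batch 2, but none overlapped with vehicle. With 10000 µM isoniazid Hamp had 3.77, 6.37 and 6.17 CPM in batch 1 and 7.03, 4.91 and 3.88 CPM in batch 2, just above the vehicle wells.

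The log2 fold change of Hamp was 7.40 ± 0.27 (SE) with valproic acid (adjusted p = 7.71e-60), 6.52 ± 0.26 with ranitidine (adjusted p = 5.67e-54) and 4.88 ± 0.26 with caffeine (adjusted p = 2.05e-40). It was 3.68 ± 0.27 with ketoconazole (adjusted p = 6.04e-27), 3.54 ± 0.27 with acetaminophen (adjusted p = 6.95e-26) and 1.26 ± 0.32 with isoniazid (adjusted p = 6.32e-04). Each of the 6 was called in both batches by themselves. At the low concentration of the same chemicals no rise was called, and the values of log2 fold change lay between -0.42 for acetaminophen and 0.26 for valproic acid. The high concentration exceeded the low one by 7.14 ± 0.32 for valproic acid and by 6.38 ± 0.31 for ranitidine on the log2 scale. The treatments that were not called gave values from -0.97 with 8 µM WY14643 to 0.37 with 2000 µM naproxen and 2.4 µM simvastatin. With 8 µM WY14643 Hamp had 1.18, 0.405 and 0.392 CPM in batch 1 and 0.694, 0.967 and 1.88 CPM in batch 2, overlapping with vehicle (adjusted p = 0.0537). Scaled by library totals alone, falls of Hamp were called with 8 µM (-1.24, adjusted p = 0.0107) and 200 µM WY14643 (-0.94, adjusted p = 0.0397). The WY14643 wells at 8 µM held 2 to 14 Hamp counts each, which limits what a fall of Hamp below vehicle could show at this depth.

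**Figure D2:**
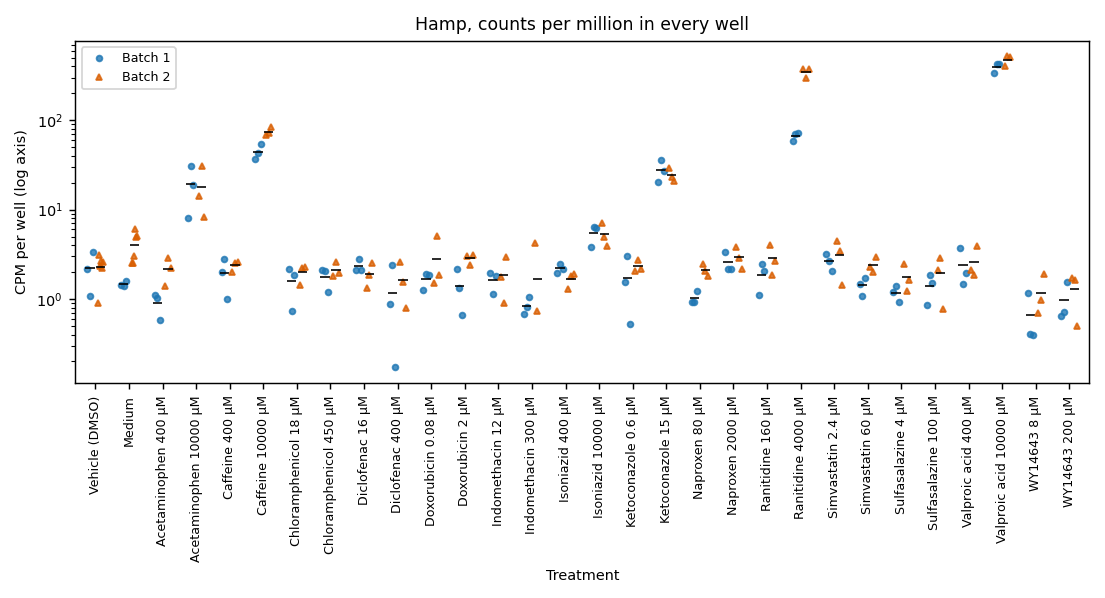
Hamp in CPM (log axis) in every WT well by treatment, circles for batch 1 and triangles for batch 2, with bars at the mean. Wells of 10000 µM valproic acid lie between 335 and 520 CPM in both batches, while the ranitidine wells of batch 2 (295 to 377 CPM) stand above those of batch 1 (59.3 to 72.8 CPM). One well, at 0 CPM, is off the log axis.

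Slc40a1, the iron exporter ferroportin, was never called higher and fell with 13 of the 14 high concentrations and 3 low ones. Vehicle wells had 114, 129 and 101 CPM in batch 1 and 147 to 184 CPM (median 173) in batch 2. Acetaminophen at 10000 µM left 8.52, 11.7 and 10.7 CPM in batch 1 and 22.2, 35.0 and 11.8 CPM in batch 2. The log2 fold change was -2.69 ± 0.15 (adjusted p = 8.23e-40), a 6.47-fold fall and the largest of the gene. With 400 µM diclofenac Slc40a1 had 25.1, 56.3 and 44.5 CPM and then 43.8, 49.7 and 58.1 CPM, a change of -1.73 ± 0.14 (adjusted p = 5.86e-25). Valproic acid at 10000 µM gave 42.3, 56.1 and 46.9 CPM and then 64.5, 60.3 and 64.2 CPM (-1.60 ± 0.14, adjusted p = 1.96e-22). Ranitidine at 4000 µM gave 36.2, 36.9 and 43.0 CPM and then 49.8, 43.7 and 55.9 CPM (-1.58 ± 0.14, adjusted p = 6.33e-22). Caffeine at 10000 µM gave 34.8, 44.5 and 59.6 CPM and then 45.9, 65.0 and 74.4 CPM (-1.24 ± 0.13, adjusted p = 7.57e-16). In each of these 5 treatments every well was below every vehicle well of its batch.

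The other high concentrations with a called fall ranged from -0.34 with doxorubicin to -1.21 with ketoconazole, and 60 µM simvastatin was not called. At low concentrations Slc40a1 fell with WY14643 (-0.64 ± 0.13), valproic acid (-0.62 ± 0.13) and sulfasalazine (-0.40 ± 0.13), the last lost without the wells of replicate number 2 (-0.34). The fall with 450 µM chloramphenicol (-0.38 ± 0.13) was lost with library totals alone (-0.26) and without replicate number 2 (-0.25). The falls were called in both batches for 12 of the 16 treatments. Slc40a1 is also made by Kupffer cells, whose markers moved with several of these treatments. The median log2 fold change of 7 tested Kupffer cell and leukocyte genes was -1.75 with acetaminophen, -3.76 with valproic acid, -2.56 with ranitidine, -3.21 with caffeine, -1.67 with diclofenac and -4.56 with 2 µM doxorubicin. Of the 7, Cd163, Clec4f, Vsig4, Csf1r and Lyz2 were never called higher, whereas Cd68 was called higher in 9 treatments and never lower, up to 1.87 with acetaminophen (adjusted p = 4.26e-15), and Cd14 higher in 10 and lower in 2. Their summed level, over 10 genes, was 77.9 to 104 CPM with vehicle in batch 1 and 69.7 to 87.7 CPM in batch 2. It was lower with acetaminophen (34.4 to 42.6 and 31.1 to 47.8 CPM), valproic acid (34.6 to 44.4 and 31.6 to 37.5 CPM) and doxorubicin (30.9 to 33.5 and 51.7 to 55.6 CPM), but higher with ranitidine (137 to 146 and 118 to 151 CPM) and caffeine (122 to 150 and 101 to 152 CPM). With diclofenac it was 95.1 to 120 CPM in batch 1 and 58.9 to 69.4 CPM in batch 2. Cd14, with 23.0 to 36.8 CPM in the vehicle wells of batch 1 and 28.5 to 42.4 CPM in batch 2, made up most of the higher sums, at 110 to 136 and 86.4 to 146 CPM with caffeine and 112 to 116 and 92.9 to 127 CPM with ranitidine. The other 9 genes summed to 53.8 to 67.0 and 34.7 to 45.3 CPM with vehicle, to 11.7 to 14.6 and 5.77 to 14.8 CPM with caffeine, and to 24.9 to 29.8 and 17.5 to 25.2 CPM with ranitidine. With caffeine 3 of the 10 genes were at 0 in every well of each batch. Under doxorubicin, where the median of these markers was lowest, Slc40a1 changed by -0.34 ± 0.13 (adjusted p = 0.0458), a call that was lost without vehicle well 1 (-0.34) or 2 (-0.32) of batch 1, among others. The part of other cell types in the fall of Slc40a1 was not tested.

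Tf, which encodes the plasma carrier transferrin, fell with 11 high concentrations and with 2.4 µM simvastatin. Vehicle wells had 8615, 7780 and 8751 CPM in batch 1 and 7398 to 9247 CPM (median 8395) in batch 2. With 400 µM diclofenac 1330, 1629 and 1579 CPM were left in batch 1 and 1111, 1088 and 1014 CPM in batch 2, a log2 fold change of -2.90 ± 0.14 (adjusted p = 3.95e-45). With 10000 µM caffeine Tf had 1821, 1811 and 1649 CPM and then 1283, 1380 and 1023 CPM (-2.43 ± 0.14, adjusted p = 6.99e-38). With 4000 µM ranitidine it had 2069, 2127 and 1984 CPM and then 1113, 1437 and 1201 CPM (-2.34 ± 0.14, adjusted p = 3.74e-36). Under 10000 µM valproic acid the wells had 2839, 3124 and 2902 CPM in batch 1 and 999, 1657 and 1544 CPM in batch 2 (-2.30 ± 0.14, adjusted p = 1.50e-35). Naproxen at 2000 µM left 2932, 3029 and 3487 CPM and then 2495, 2620 and 3059 CPM (-1.56 ± 0.13, adjusted p = 3.84e-22). None of these wells overlapped with vehicle.

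With caffeine, ranitidine and valproic acid the fall was larger in batch 2 than in batch 1 by the test of the interaction of batch and treatment. Sulfasalazine moved Tf the other way. At 100 µM Tf had 11436, 10296 and 10663 CPM in batch 1 and 9545, 12130 and 13982 CPM in batch 2, a rise of 0.53 ± 0.12 (adjusted p = 2.31e-04). The ST assay did not call this rise. At 4 µM the rise was 0.36 ± 0.12 (adjusted p = 0.0344). It was not called in batch 2 by itself and was lost without the filter on low counts (0.34). With 10000 µM acetaminophen, where Slc40a1 was lowest, Tf was not called (-0.24, adjusted p = 0.0742), but it was lower when scaled by library totals alone (-0.66, adjusted p = 5.04e-07). Some small calls were lost when wells of 1 replicate number were left out, namely the fall with 60 µM simvastatin without number 1 (-0.33) or 3 (-0.38), that with 2.4 µM simvastatin without number 1 (-0.36), 2 (-0.54), 3 (-0.43) or 5 (-0.41), and the rise with 4 µM sulfasalazine without number 2 (0.26), 3 (0.30) or 6 (0.35). Tf fell with several treatments that lowered the hepatocyte marker list, whose median log2 fold change was -2.23 with diclofenac, -1.41 with ranitidine and -1.13 with valproic acid, where all 6 of its tested genes were called lower. The list was mixed with caffeine (median -0.38, with 2 genes higher and 3 lower) and with 2000 µM naproxen (median -0.58, with 2 higher and 4 lower). Tat was called higher in 10 treatments, with its largest change of 3.23 under caffeine (adjusted p = 1.62e-52). With 400 µM diclofenac the 6 markers summed to 5740 to 7775 CPM in batch 1 and 5923 to 7537 CPM in batch 2. The part of a general loss of hepatocyte mRNAs in the fall of Tf was not tested.

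Tfrc, the receptor that brings transferrin into cells, rose with 11 high and 4 low concentrations and was called in both batches for 14 of these 15. In vehicle wells it had 111, 137 and 101 CPM in batch 1 and 80.8 to 93.6 CPM (median 89.1) in batch 2. Acetaminophen at 10000 µM raised it to 796, 905 and 881 CPM and to 945, 737 and 617 CPM, a 10.7-fold rise (log2 fold change 3.42 ± 0.13, adjusted p = 9.55e-59). With 15 µM ketoconazole Tfrc had 417, 368 and 353 CPM in batch 1 and 277, 223 and 237 CPM in batch 2 (1.66 ± 0.13, adjusted p = 1.26e-25). With 4000 µM ranitidine it had 208, 185 and 250 CPM and then 304, 272 and 210 CPM (1.34 ± 0.13, adjusted p = 1.59e-19). Valproic acid at 10000 µM gave 444, 355 and 340 CPM and then 230, 241 and 242 CPM (1.32 ± 0.13, adjusted p = 5.29e-19). Indomethacin at 300 µM gave 382, 286 and 303 CPM in batch 1 but 122, 152 and 137 CPM in batch 2 (1.29 ± 0.13, adjusted p = 5.86e-18). All these wells were above vehicle.

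Both concentrations of WY14643 raised Tfrc, by 1.19 ± 0.13 at 8 µM and 1.10 ± 0.13 at 200 µM, and the 2 concentrations did not differ from each other (-0.09 ± 0.14, adjusted p = 0.777). Tfrc was not called with 10000 µM caffeine or 400 µM diclofenac, under which Tf fell the most, although with diclofenac a rise was called when scaled by library totals alone (0.36, adjusted p = 0.00692, against 0.22, adjusted p = 0.107). With caffeine it had 95.8, 97.6 and 98.9 CPM in batch 1 and 109, 70.0 and 59.9 CPM in batch 2. With acetaminophen the receptor thus rose while the exporter Slc40a1 fell, in every well of both batches.

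Tfr2, the second transferrin receptor, rose with 7 treatments and fell with 7. Vehicle wells had 19.8, 15.7 and 16.6 CPM in batch 1 and 15.7 to 28.1 CPM (median 19.9) in batch 2. In batch 2 the vehicle wells of plate 3 exceeded those of plate 2 by 0.63 on the log2 scale (adjusted p = 0.182 by edgeR). By the same test the plates differed by 0.46 for Steap3 (adjusted p = 0.291) and by 0.40 for Aco1 (adjusted p = 0.336), also higher on plate 3. With 200 µM WY14643 Tfr2 had 36.2, 37.9 and 38.2 CPM in batch 1 and 51.0, 57.2 and 54.4 CPM in batch 2 (1.45 ± 0.13, adjusted p = 4.09e-21). With 400 µM valproic acid it had 36.5, 35.0 and 36.5 CPM and then 51.6, 61.7 and 55.1 CPM (1.26 ± 0.13, adjusted p = 1.59e-16). The high concentration of valproic acid gave a value of the other sign, -0.44 ± 0.14 (adjusted p = 0.00322), with 19.4, 14.3 and 20.0 CPM and then 17.1, 16.7 and 17.4 CPM, which overlapped with vehicle in both batches, and scaled by library totals alone the value was -0.16 (adjusted p = 0.250). Tfr2 also rose with 8 µM WY14643 (1.17 ± 0.13), 100 µM sulfasalazine (0.81 ± 0.13) and 80 µM naproxen (0.63 ± 0.13). It fell most with 400 µM diclofenac, to 8.55, 7.74 and 7.90 CPM and to 8.95, 4.58 and 5.92 CPM (-1.57 ± 0.15, adjusted p = 5.68e-19). Ranitidine (-1.45 ± 0.15), acetaminophen (-1.06 ± 0.15) and ketoconazole (-0.77 ± 0.14) at their high concentrations lowered it in both batches too, and 450 µM chloramphenicol (-0.53 ± 0.14) in the fit of both. Acetaminophen therefore moved the 2 transferrin receptors in opposite directions.

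**Figure D3:**
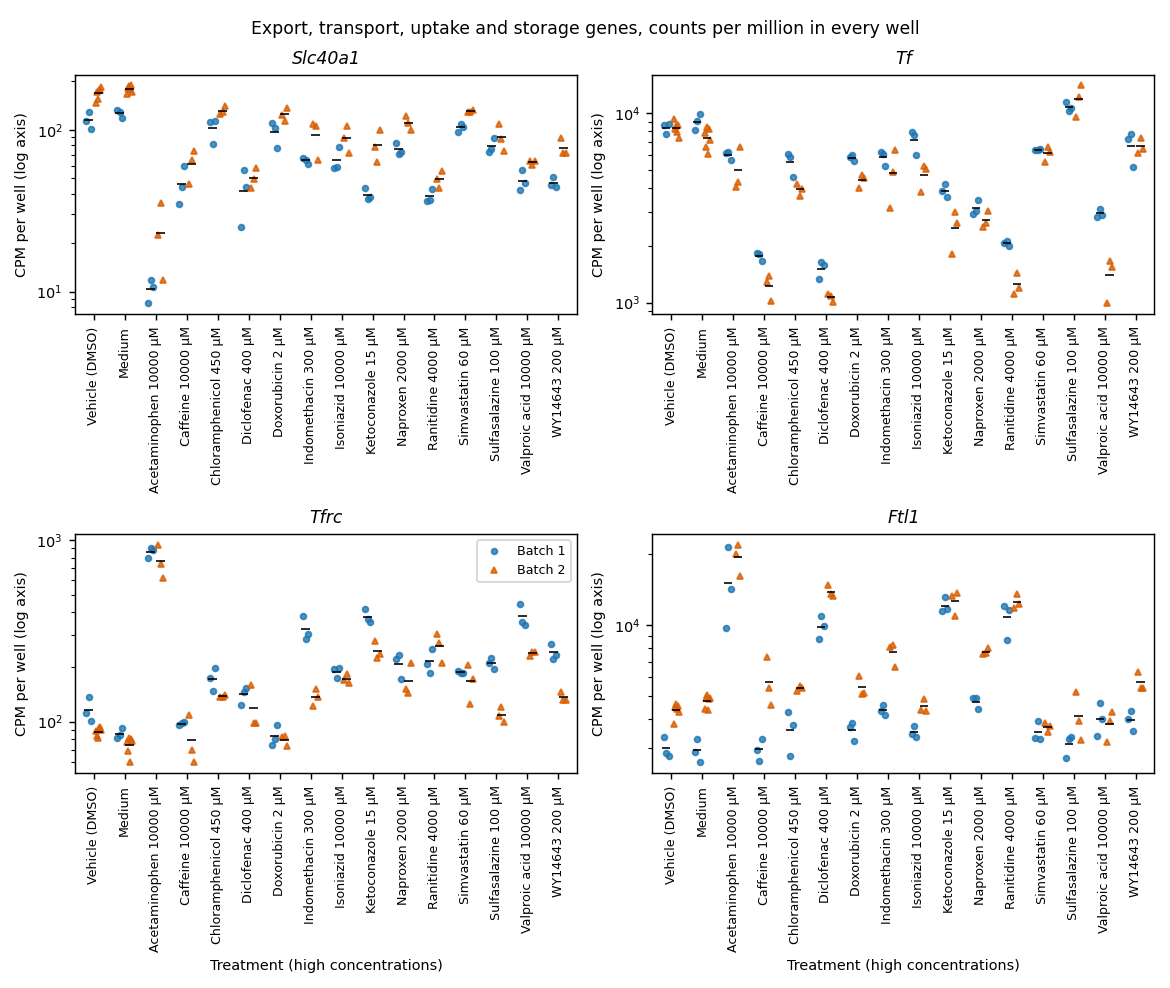
Slc40a1, Tf, Tfrc and Ftl1 in CPM (log axes) in every WT well of vehicle, culture medium and the 14 high concentrations, circles for batch 1 and triangles for batch 2, with bars at the mean. Within each batch, acetaminophen gives the lowest Slc40a1 wells and the highest means of Tfrc and Ftl1, while the mean of Tf is lowest with diclofenac, whose wells lie at 1014 to 1629 CPM.

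Steap3, the endosomal iron reductase, rose with 4 treatments and fell with 6. In vehicle wells it had 15.7, 16.4 and 13.4 CPM in batch 1 and 14.7 to 24.2 CPM (median 18.5) in batch 2. With 4000 µM ranitidine it reached 52.4, 52.0 and 50.2 CPM and 46.3, 45.3 and 63.6 CPM (1.68 ± 0.12, adjusted p = 7.61e-27). With 10000 µM valproic acid it reached 40.6, 49.0 and 48.4 CPM and 64.8, 56.2 and 59.1 CPM (1.35 ± 0.12, adjusted p = 7.57e-20). Both sets of wells were clear of vehicle. Caffeine at 10000 µM did the reverse and left 2.26, 3.47 and 2.10 CPM in batch 1 and 4.96, 4.44 and 5.64 CPM in batch 2 (-2.04 ± 0.16, adjusted p = 2.58e-25). Acetaminophen (-1.10 ± 0.15) and naproxen (-0.84 ± 0.14) at the high concentration also lowered Steap3 in both batches. Simvastatin at 60 µM (-0.64 ± 0.14) and chloramphenicol at 450 µM (-0.43 ± 0.14) lowered it in the fit of both batches, while ketoconazole at 15 µM (0.72 ± 0.13) and valproic acid at 400 µM (0.45 ± 0.13) raised it. The chloramphenicol call was lost with library totals alone (-0.30) and without the wells of replicate number 2 (-0.43), and that of 400 µM valproic acid without replicate number 2 (0.34) or 3 (0.37). Hamp rose with caffeine, ranitidine and valproic acid alike, whereas Steap3 fell with the first and rose with the others.

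Slc11a2, the divalent metal transporter DMT1, had 13 calls higher and 1 lower, of which 5 of the higher and the lower one were lost with library totals alone. It was scarce, with 5.81, 8.19 and 6.25 CPM in the vehicle wells of batch 1 and 5.42 to 8.51 CPM (median 6.55) in batch 2. With 4000 µM ranitidine it had 13.9, 12.1 and 16.4 CPM and then 21.1, 20.0 and 18.1 CPM (1.41 ± 0.16, adjusted p = 3.44e-15). With 10000 µM valproic acid it had 12.2, 14.3 and 16.5 CPM and then 24.7, 18.1 and 20.7 CPM (1.13 ± 0.16, adjusted p = 9.13e-11). Valproic acid at 400 µM gave 10.9, 14.2 and 9.09 CPM and then 13.3, 14.5 and 13.3 CPM (0.94 ± 0.16, adjusted p = 3.90e-07). These 3 groups lay above vehicle in both batches. Of the 13 calls, 5 held in both batches by themselves, the other 2 being indomethacin (0.73 ± 0.16) and acetaminophen (0.68 ± 0.17) at the high concentration. With acetaminophen the CPM of its wells, 6.32 to 11.7 in batch 1 and 4.62 to 11.5 in batch 2, overlapped with vehicle, and scaled by library totals alone its change was 0.28 (adjusted p = 0.112).

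Fth1 and Ftl1, the ferritin chains, were both called higher with 10000 µM acetaminophen, 15 µM ketoconazole and 8 µM WY14643. Their probes may also read near-identical ferritin copies, so the values belong to the probe rather than surely to 1 locus. Fth1 had 4382, 3721 and 4410 CPM in the vehicle wells of batch 1 and 3275 to 4005 CPM (median 3544) in batch 2. With 10000 µM acetaminophen it had 8079, 13986 and 10242 CPM and then 8151, 8653 and 10865 CPM (1.76 ± 0.11, adjusted p = 8.41e-34). With 15 µM ketoconazole it had 8166, 9855 and 8333 CPM in batch 1 but 3643, 5627 and 4939 CPM in batch 2, where 1 well fell within the range of vehicle (0.79 ± 0.11, adjusted p = 3.06e-10). Fth1 fell with caffeine (-0.93 ± 0.12), diclofenac (-0.74 ± 0.11) and valproic acid (-0.67 ± 0.11) at their high concentrations. With caffeine the wells had 2290, 1900 and 2226 CPM in batch 1 and 2034, 1764 and 1253 CPM in batch 2, all below vehicle. Small rises of Fth1 were called with 80 µM naproxen (0.38 ± 0.11), 8 µM WY14643 (0.34 ± 0.11) and 100 µM sulfasalazine (0.27 ± 0.11), none of them in batch 2 by itself, and all were lost with library totals alone.

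Ftl1 had 3342, 2868 and 2780 CPM in the vehicle wells of batch 1 and 3816 to 4611 CPM (median 4440) in batch 2. It rose to 9747, 21472 and 14304 CPM and to 20152, 22003 and 16116 CPM with acetaminophen (2.65 ± 0.12, adjusted p = 2.10e-50). Ketoconazole gave 11452, 13187 and 11742 CPM and then 13294, 10933 and 13727 CPM (1.84 ± 0.12, adjusted p = 1.54e-32). With ranitidine Ftl1 had 12057, 8679 and 11623 CPM and then 11813, 13552 and 12250 CPM (1.76 ± 0.12, adjusted p = 1.37e-31). Diclofenac gave 8744, 10934 and 9904 CPM and then 14788, 13620 and 13297 CPM (1.55 ± 0.12, adjusted p = 4.83e-27). All wells of these 4 high concentrations were above vehicle. Indomethacin (0.82 ± 0.11), naproxen (0.74 ± 0.12) and 200 µM WY14643 (0.62 ± 0.12) followed with rises in both batches. With 8 µM WY14643 the change was 0.38 ± 0.12 (adjusted p = 0.00306), not called in batch 2 by itself (0.21, adjusted p = 0.0865) and lost with library totals alone (0.10). The 1 fall was with 400 µM valproic acid (-0.36 ± 0.12), and it was lost without the wells of replicate number 2 (-0.32) or 3 (-0.29). Under diclofenac, then, the light chain rose while the heavy chain fell, and the difference between the chains was not tested.

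Aco1, the aconitase that doubles as iron regulatory protein 1, rose most with WY14643 and naproxen. Vehicle wells had 71.6, 71.7 and 64.8 CPM in batch 1 and 61.8 CPM or more (median 72.6) in batch 2. With 200 µM WY14643 it had 279, 292 and 347 CPM and then 327, 268 and 281 CPM (2.29 ± 0.14, adjusted p = 1.79e-34). The low concentration of 8 µM gave nearly as much, with 301, 241 and 209 CPM and then 232, 222 and 242 CPM (2.03 ± 0.14, adjusted p = 1.74e-29), and the difference between the concentrations, 0.26 ± 0.15, was not called (adjusted p = 0.336). With 2000 µM naproxen Aco1 had 311, 273 and 264 CPM and then 299, 273 and 253 CPM (1.96 ± 0.14, adjusted p = 3.45e-28). These wells were all above vehicle, and the batches were close to each other. Simvastatin at 60 µM (0.96 ± 0.14), valproic acid at 400 µM (0.95 ± 0.14) and indomethacin at 300 µM (0.89 ± 0.14) followed, each called in both batches. Aco1 fell with acetaminophen, to 16.2, 27.8 and 28.6 CPM and to 26.2, 42.6 and 22.1 CPM (-0.98 ± 0.15, adjusted p = 2.88e-09), and also with diclofenac (-0.84 ± 0.15), ketoconazole (-0.68 ± 0.15), ranitidine (-0.55 ± 0.15) and isoniazid (-0.44 ± 0.15), the last lost without the wells of replicate number 2 (-0.39). These were the high concentrations.

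**Figure D4:**
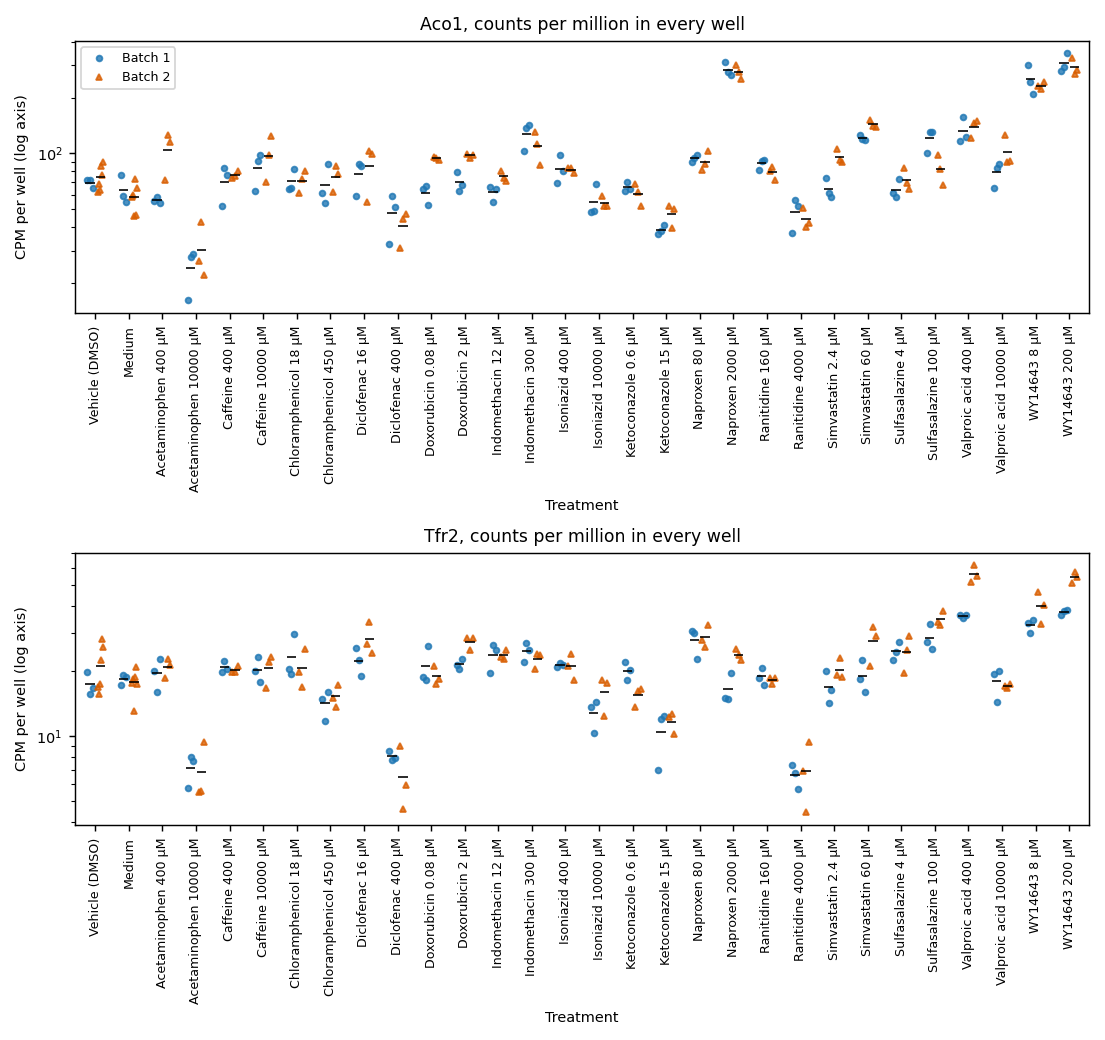
Aco1 (top) and Tfr2 (bottom) in CPM (log axes) in every WT well by treatment, circles for batch 1 and triangles for batch 2, with bars at the mean. Aco1 stands at 209 to 347 CPM with both concentrations of WY14643 and at 253 to 311 CPM with 2000 µM naproxen, and Tfr2 is high with 400 µM but not with 10000 µM valproic acid.

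The concentrations of a chemical were also compared with each other. Between high and low, 84 of 140 member and chemical pairs were called, where all genes gave 40.8%. Tf was lower at the high concentration for 11 of 14 chemicals and never higher, Slc40a1 lower for 9 and never higher, and Ftl1 higher for 8 and never lower. Tfrc was higher for 9 and lower for 1, and Hamp higher for 6. For WY14643 none of the 10 members was called between 8 and 200 µM, and the values ran from -0.35 for Tf to 0.28 for Tfr2.

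Between culture medium and vehicle (0.5% DMSO) edgeR called none of the 10 members and 12.6% of all genes, a share so low that nothing is read from the count of the members. At an unadjusted p under 0.05, 1 member passed, Tfrc, with 80.8, 84.5 and 91.6 CPM in medium in batch 1, below the vehicle wells, and 60.0 to 80.8 CPM (median 77.5) in batch 2. Its log2 difference of medium from vehicle was -0.23 ± 0.12 (adjusted p = 0.182). DESeq2 called 0 members, and a fit scaled by library totals alone called 1, Tfrc (-0.31, adjusted p = 0.0454). A fit to the medium and vehicle wells alone called 2, Tfrc (-0.23 ± 0.07, adjusted p = 0.0145) and Slc40a1 (0.19 ± 0.06, adjusted p = 0.0252). The largest difference in the fit to all wells was that of Hamp, 0.54 ± 0.31 (adjusted p = 0.252), with 1.42, 1.40 and 1.60 CPM in the medium wells of batch 1 and up to 6.07 CPM (median 3.99) in those of batch 2.

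The effects in the 2 batches, and so in the 2 rats, were compared directly. The interaction of batch and treatment was called for 10 of 280 pairs, where all genes gave 2.44%, and 4 of the 10 were of Tf and 3 of Tfrc. The largest was Hamp with ranitidine, where the log2 fold change was 5.06 in batch 1 and 7.31 in batch 2. Valproic acid, which raised Hamp the most, gave 7.29 and 7.40 in the same batches. Tf with valproic acid changed by -1.68 in batch 1 and -2.86 in batch 2, and Tfrc with indomethacin by 1.76 and 0.76. Among the 10 pairs the sign differed between the batches for Ftl1 with 10000 µM valproic acid (0.24 and -0.48) and for Tf with 0.08 µM doxorubicin (0.17 and -0.52), and was the same for the rest. The values of Tfr2 with 200 µM WY14643 were 1.54 against all vehicle wells of batch 2 and 1.26 against those of its own plate. Against the vehicle wells of the same plate in batch 2, the change of Hamp was 7.43 with ranitidine and 3.22 with acetaminophen, and that of Slc40a1 with acetaminophen was -2.57. When vehicle was compared between both plates of batch 2, edgeR called no gene, and 1423 of 10191 genes had an unadjusted p under 0.05.

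**Figure D5:**
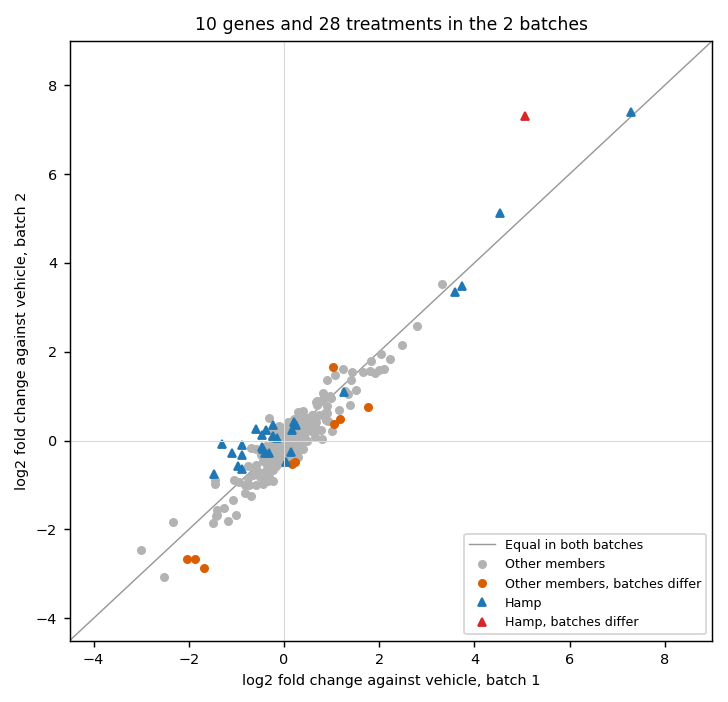
Log2 fold change against vehicle in batch 1 (x axis) and batch 2 (y axis) for 280 pairs of a gene and a treatment, with Hamp as triangles, orange or red where the interaction of batch and treatment was called, and a line where both batches are equal. Hamp with ranitidine (5.06 and 7.31) lies well above the line.

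The ST assay measured 4 of the members again in the same lysates. Of 112 pairs, 48 were called, where all ST genes gave 34.8%. The same 4 genes had 58 calls in the WT assay, of which ST kept 45 and no longer called 12. Tf with diclofenac changed by -2.70 in ST and -2.90 in WT, Slc40a1 with acetaminophen by -2.57 and -2.69, Aco1 with 200 µM WY14643 by 2.20 and 2.29 and Slc11a2 with ranitidine by 1.08 and 1.41. One WT call had the other sign in ST, namely Slc11a2 with 450 µM chloramphenicol, at -0.45 in WT (adjusted p = 0.0392) and 0.06 in ST (adjusted p = 0.884). The rise of Tf with 100 µM sulfasalazine, 0.53 in WT, was 0.24 in ST and was not called there (adjusted p = 0.190). The assays share the wells and, for these genes, carry probes with the same numbers, so ST is a check of the measurement and not of the biology.

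Other genes of iron biology were taken from 8 lists. Of their 70 assayed genes, 60 were tested, and 592 of 1680 gene and treatment pairs were called (35.2%), where all genes gave 30.2%. The 11 tested regulators of hepcidin had 38 calls higher and 60 lower (12.3% and 19.5% of 308 pairs, where all genes gave 15.2% and 15.0%), with a median log2 fold change of -0.04 over all treatments, where the medians of all genes lay between -0.03 and 0.05. Most often called were Tmprss6, the protease that dampens hepcidin (9 higher and 9 lower), Hjv, the BMP co-receptor hemojuvelin (7 and 8), and Smad1, which carries the BMP signal (1 and 13). Hjv ran from 1.64 ± 0.15 with 200 µM WY14643 to -3.25 ± 0.21 with 400 µM diclofenac. Hfe, chosen after its values were seen, was called lower 13 times and never higher, down to -2.15 ± 0.09 with 10000 µM valproic acid.

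Of the BMP and SMAD target genes 3 were tested, all of them inhibitors of differentiation, with 36.9% of 84 pairs higher and 13.1% lower, against 15.2% and 15.0% for all genes. Id1 was called higher 14 times and lower once, Id2 higher 13 times and lower 2 times, and Id3 higher 4 times and lower 8 times. With 10000 µM valproic acid, where Hamp was highest, Id1 changed by 4.45 ± 0.15, Id3 by 2.22 ± 0.18 and Id2 by 1.50 ± 0.12. With ranitidine the values were 1.35 ± 0.14 for Id1, 0.58 ± 0.12 for Id2 and 0.13 ± 0.19 for Id3. With caffeine, where Hamp also rose, Id1 fell by 0.81 and Id3 by 2.80 on the log2 scale, while Id2 changed by 0.75 ± 0.12 (adjusted p = 1.92e-08), with 0.04 in batch 1 and 1.28 in batch 2. In the other treatments that raised Hamp, Id1 and Id3 were both called higher, by 1.91 ± 0.14 and 0.79 ± 0.19 with isoniazid, 1.37 ± 0.14 and 0.55 ± 0.19 with ketoconazole, and 1.12 ± 0.15 and 1.08 ± 0.19 with acetaminophen. Id2 changed by 0.98 ± 0.12 with isoniazid and was not called with ketoconazole (0.09) or acetaminophen (-0.15). Id1 also rose with 2 µM doxorubicin (1.84 ± 0.14), where Hamp was not called (-0.06 ± 0.37). The 11 tested IL-6, STAT3 and acute phase genes had 62 calls higher and 63 lower (20.1% and 20.5% of 308 pairs, against 15.2% and 15.0% for all genes). With caffeine 6 of the 11 were higher and 1 lower (median 0.81), where 66.2% of all genes were called in either direction. With valproic acid 1 was higher and 8 lower (median -0.78, all genes called: 66.7%), and with diclofenac 1 was higher and 8 lower (median -1.38, all genes called: 71.7%). Fgg, Fgb and Fga, the fibrinogen chains, were called most often. Fgb ran from 2.09 with caffeine to -2.57 with diclofenac. For the other treatments that raised Hamp, the counts of this list are not given here. Lcn2 (8 calls higher and 1 lower) and A2m (2 and 9) were highest with acetaminophen, at 1.95 and 1.06. Cebpd (7 and 2) was highest with isoniazid, at 1.31, and Stat3 (1 and 8) with ranitidine, at 0.33. Socs3 was called higher 7 times and lower 5 times, up to 2.28 with caffeine.

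Among the other lists, iron regulatory proteins and their turnover had 29 calls higher and 14 lower over 4 genes (25.9% and 12.5% of 112 pairs, against 15.2% and 15.0% for all genes). Skp1 and Cul1, subunits of the ubiquitin ligase, and Fbxl5, its iron-sensing subunit, were called most often, all with changes within -1.07 and 0.89. Ireb2, the iron regulatory protein of this list, was called higher 7 times and never lower. Its largest change was 0.94 ± 0.08 with 10000 µM acetaminophen (adjusted p = 2.69e-22 by edgeR). Among other transporters, reductases and oxidases, 21 calls were higher and 40 lower over 6 genes (12.5% and 23.8% of 168 pairs). Ceruloplasmin (Cp), the ferroxidase that works with ferroportin, ran from 1.31 with 2 µM doxorubicin to -2.52 with diclofenac, Slc39a14, the transporter of free iron, fell 13 times, down to -2.18 with acetaminophen, and Steap4, a reductase, fell 10 times, down to -2.35 with diclofenac. Cp was called higher 8 times and lower 7 times, and Slc39a14 and Steap4 were each called higher once. The 3 tested genes of ferritin loading and turnover had 10 calls higher and 15 lower (11.9% and 17.9% of 84 pairs). Ncoa4, the receptor that takes ferritin to the lysosome, fell 12 times of 28, down to -1.41 with diclofenac, and was called higher once, while Pcbp2, an iron chaperone of ferritin, was higher 6 times and lower 2 times, and Herc2 higher 3 times and lower once.

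Genes of heme and hemoglobin salvage had 64 calls higher and 43 lower over 11 genes (20.8% and 14.0% of 308 pairs, against 15.2% and 15.0% for all genes). Haptoglobin (Hp) fell 10 times, down to -4.09 with diclofenac, and rose 4 times, up to 0.91 with 400 µM valproic acid. Hemopexin (Hpx) fell 9 times, down to -2.09 with diclofenac, and rose 3 times, up to 0.67 with 2 µM doxorubicin. Flvcr1, described as a heme exporter, was higher 12 times and never lower, up to 3.55 with acetaminophen, where Slc40a1 and Slc39a14 fell. Mitochondrial iron and iron-sulfur cluster genes had 70 calls higher and 21 lower over 11 genes (22.7% and 6.82% of 308 pairs). Cisd1, an iron-sulfur protein of the outer membrane, was higher 17 times and never lower, with its largest value of 1.33 under valproic acid.

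The genes whose levels most resembled those of each member were found over the 60 means of a treatment and batch, as Pearson's r of log2(CPM + 1) centred within batch. These points share the vehicle and the overall response to high concentrations, so the values describe the profiles only. Hamp was most like Atp6v0a1 (r = 0.895), Rhpn2 (0.866) and Stk10 (0.847), and Steap3 most like Atp6v1a (0.910), which with Atp6v0a1 encodes parts of the proton pump of endosomes and lysosomes. For Tf the nearest were F12 (0.964), Cpb2 (0.949) and Pglyrp2 (0.942), which encode plasma proteins. Aco1 was most like Agpat3 (0.923), Acaa1a (0.916) and Pank1 (0.914), and Slc40a1 like Anks4b (0.926). Slc11a2 was most like Scpep1 (0.813) and the lysosomal protease Ctsd (0.784). Ftl1 was most like LOC100360087 (0.978), which RefSeq lists with Ftl1 as a synonym, and Tfr2 like Slc30a10 (0.941). Tfrc (Creg1, 0.781) and Fth1 (Apoa2, 0.780) had lower values. Among the members themselves, r was lowest for Tfrc and Slc40a1 and for Slc40a1 and Ftl1 (-0.76 each) and highest for Tfr2 and Aco1 (0.74).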

How the data were processed

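Read counts per probe from TempO-Seq, a ligation assay of short targeted probes read by sequencing, were deposited by the authors for 186 wells in the WT and in the ST assay. Per the labels, reads were aligned with STAR 2.5.3a, and the build named is rn6. Counts of probes of 1 symbol were added, and CPM per well used the library total. Depth was 2289425 to 8975207 reads per WT well and 558190 to 2210264 per ST well.

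Genes averaging 10 or more counts were fitted by edgeR 4.0.16 (R 4.3.3; TMM, quasi-likelihood test) with treatment and batch over all 186 wells, with a Benjamini-Hochberg adjusted p under 0.05 as the call. The same test was fitted in each batch, with 1 mean per batch and treatment for the interaction, and on the ST counts. The model was tested on simulated data first. Wells of a batch come from 1 rat, so p-values measure mostly the spread between wells. Alternatives were RLE factors, library totals alone, no filter, DESeq2 1.42.0, pairwise fits, wells left out in turn, vehicle wells of the same plate, and a minimum log2 fold change of 1. Named for each member were up to 5 called treatments with the largest rise and up to 5 with the largest fall, with the same sign in both batches, and for each list the 3 genes with most calls; other genes were chosen after their values were seen. The members and lists were chosen with earlier results of these data known. The marker and pathway genes Acvr2a, Il6r, Slc39a8, Pcbp1, Hscb, Apob, Lrat, Hba1 and Hba-a2 were not analysed here, and some results of the mitochondrial list are not reported here. Promoter sequences are from RefSeq (GRCr8) and were not joined to coordinates of the counts.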

Additional observations from a re-analysis of the deposited data

Results flagged for a closer look

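The interaction of batch and treatment, tested by edgeR, was called for 10 of 280 pairs of a member and a treatment, where 2.44% of all genes' pairs were called, and for 5 without the filter on low counts. The difference of log2 fold change (batch 2 minus batch 1) was 2.24 for Hamp with 4000 µM ranitidine (adjusted p = 0.00175). For Tf it was -1.19 with 10000 µM valproic acid (adjusted p = 1.96e-05), -0.81 with 4000 µM ranitidine (adjusted p = 0.00487), -0.63 with 10000 µM caffeine (adjusted p = 0.0450) and -0.69 with 0.08 µM doxorubicin (adjusted p = 0.0498). For Tfrc it was -0.99 with 300 µM indomethacin (adjusted p = 5.64e-04), 0.59 with 4000 µM ranitidine (adjusted p = 0.0290) and -0.66 with 100 µM sulfasalazine (adjusted p = 0.0487). It was -0.70 for Fth1 with 15 µM ketoconazole (adjusted p = 0.0400) and -0.73 for Ftl1 with 10000 µM valproic acid (adjusted p = 0.00959). Indomethacin, sulfasalazine and ketoconazole were on plate 5 in batch 1, away from the vehicle wells, and there the plate and the treatment cannot be told apart. Each batch is 1 rat with its own library preparation and sequencing, which cannot be told apart either. No well stood out among the 6 vehicle or 6 medium wells of batch 2 for any of the 10 members, by Dixon's test in 20 groups.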

How the results depend on the processing

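Of 121 called member and treatment results, 87 kept their direction and their call under RLE factors, library totals, no filter, DESeq2, pairwise fits, each left-out well set and, for 4 genes, the ST assay, and 34 lost the call under at least 1 of these, with no change of sign except Slc11a2 with 450 µM chloramphenicol, which was 0.06 in the ST assay against -0.45. DESeq2 kept 121 of 121 calls, RLE factors 118, library totals alone 104, no filter on low counts 112 and the pairwise fits 119. The ST assay kept 45 of its 58, lost 12 and gave 1 the other sign. Requiring a log2 fold change of at least 1 left 46 calls (28 higher and 18 lower), 39 in both batches (25 higher and 14 lower), 36 between concentrations, 2 interactions and 175 in the iron lists, by the construction of that rule. Without the filter 5 interactions were called instead of 10, where more genes were tested. For medium against vehicle, 1 member was called with library totals alone and 2 in the pairwise fit, against 0, and the cause was not tested. Leaving out wells of 1 replicate number or 1 vehicle well of batch 1 gave 99 to 120 calls (53 to 71 higher, 42 to 52 lower), and 65 to 82 in both batches (38 to 50 higher, 25 to 32 lower). Shares of all genes are not given here for the counts under these alternatives. The counts describe the dependence on processing and are not read as results about the members. Most often lost were Tfr2 with 4 µM sulfasalazine, Slc11a2 with 80 µM naproxen, Fth1 with 100 µM sulfasalazine and Slc40a1 with 2 µM doxorubicin. No paired analysis was possible because replicate numbers were given in accession order and name wells only. Testing each probe by itself gave no other value, since every member had 1 probe. Hamp and Slc11a2 had few reads in control wells, which limits small changes of both.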

Other observations

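Hmox1, the inducible heme oxygenase that frees iron from heme, was chosen here after its values were seen. It was called higher with 9 treatments and lower with 2, with a log2 fold change of 2.51 under 10000 µM acetaminophen (adjusted p = 7.35e-17 by edgeR), where the ferritin chains also rose, and of -1.10 under 10000 µM valproic acid (adjusted p = 2.23e-04). Nfs1, the cysteine desulfurase of iron-sulfur cluster assembly, also chosen after its values were seen, had a mean of 44.5 CPM in the vehicle wells of batch 1 and was at 0 in those of batch 2, so its calls rest on batch 1.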
